A study of Homo sapiens with 6 samples.

Results

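The guanylate-binding proteins are a family of large GTPases whose genes sit side by side on chromosome 1. The genes GBP1, GBP2, GBP3, GBP4 and GBP5 were chosen by symbol, and all 5 of them were found among the 15598 genes of the deposited table. They were measured by RNA sequencing in MHCC97H, an established human hepatocellular carcinoma line with high metastatic capacity. The shcontrol group (libraries NC_3, NC_3_2 and NC_3_3) carried a control short hairpin RNA, and the shHNRNPC group (libraries SI_3, SI_3_2 and SI_3_3) carried a hairpin against HNRNPC, an RNA-binding protein of the nucleus that takes part in splicing. The labels name no second hairpin and no rescue, and they give neither the time after knockdown nor any interferon treatment. The design text speaks of independent replicates without saying what was repeated, so p-values measure the spread between these libraries.

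Guanylate-binding proteins are among the most strongly interferon-induced proteins of human cells. Interferons raise their transcription through factors that include IRF1, STAT2 and IRF9, and interferon-stimulated response elements in the promoters of such genes bind IRF factors. GBP1 coats bacteria that have escaped into the cytosol and brings other members and caspase-4 to their surface. GBP1, GBP2 and GBP5 end in a CaaX box and are anchored to membranes by an isoprenyl group, whereas GBP4 has none.

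After knockdown of HNRNPC, GBP4 rose 3.33-fold and GBP5 rose 3.79-fold, whereas the other 3 genes had fold changes near 1. GBP1, by far the most abundant member, rose 1.08-fold, and GBP2 fell 1.09-fold in a call that several other settings did not keep. The fold change of GBP3 was 1.18 and did not pass the test.

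Total counts were 15563077 to 18328475 per library, and edgeR tested the 11831 genes left by its filter on low counts, all 5 GBP members among them. HNRNPC itself fell 13.7-fold, from 853 ± 4.76 to 62.3 ± 3.80 CPM, read counts divided by the TMM-scaled library size (mean ± SD, n = 3 per group, as for all such values here). Of 13 hepatocyte markers, 4 passed the filter. Of these, KRT8, KRT18 and CPS1 were called higher, as were 29.8% of all tested genes. The keratins KRT8 and KRT18 were abundant, while albumin (ALB) had between 0 and 1 count per library, so the labelled liver origin is not seen in that defining marker.

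Promoter windows of 3 of the 5 members, GBP1, GBP3 and GBP4, were available from RefSeq on GRCh38.p14. They are shown because all of them hold the core of an interferon-stimulated response element, although only GBP4 of these 3 rose more than 2-fold. Each runs 5′ to 3′ on the minus strand of chromosome 1, from 250 bases before the RefSeq start to 20 bases after it, and capitals mark the match to that core, which is GAAA, any 2 bases and GAAA, and which here lies on the other strand, so that it reads TTTC, any 2 bases and TTTC.
GBP1, chr1:89065189-89065458: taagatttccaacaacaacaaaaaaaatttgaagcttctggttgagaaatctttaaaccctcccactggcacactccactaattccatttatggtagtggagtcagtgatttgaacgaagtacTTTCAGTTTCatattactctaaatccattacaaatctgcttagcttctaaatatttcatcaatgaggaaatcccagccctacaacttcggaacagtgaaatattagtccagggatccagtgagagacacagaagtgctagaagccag
GBP3, chr1:89022847-89023116: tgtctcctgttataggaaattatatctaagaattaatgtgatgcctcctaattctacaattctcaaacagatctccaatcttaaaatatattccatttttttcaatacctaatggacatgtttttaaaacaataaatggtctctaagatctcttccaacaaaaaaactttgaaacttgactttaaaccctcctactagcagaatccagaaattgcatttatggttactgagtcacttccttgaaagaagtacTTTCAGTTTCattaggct
GBP4, chr1:89198923-89199192: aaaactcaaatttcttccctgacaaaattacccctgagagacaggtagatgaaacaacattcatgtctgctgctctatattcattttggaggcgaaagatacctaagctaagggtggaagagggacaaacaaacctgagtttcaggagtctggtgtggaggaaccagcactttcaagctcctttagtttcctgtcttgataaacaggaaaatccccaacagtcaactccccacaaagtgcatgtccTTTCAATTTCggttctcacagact

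The match begins at base -127 from the RefSeq start in GBP1, at base 3 after it in GBP3 and at base -4 in GBP4. RefSeq and the deposited table place the start of GBP1 differently, the table's being 152 bases further upstream, so the distance depends on the annotation. GBP1 and GBP3 share the run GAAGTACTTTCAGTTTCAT of 19 bases around the match, and 39 of the 50 bases centred on it are identical. Between GBP1 and GBP4 only 20 of those 50 bases are identical. Those 50 include the 10 bases of the match on which the windows were aligned, so part of each count follows from the search. Searched on both strands, the core of the response element occurs in 3.57% of all 35116 RefSeq promoter windows of 300 bases. These are matches of letters, not measured binding sites.

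GBP4 was the member with the most precise large change. Its counts were 115, 103 and 127 without the knockdown and 376, 371 and 409 with it. On the CPM scale these are 6.76, 6.52 and 6.83 in shcontrol against 22.9, 21.2 and 23.1 in shHNRNPC. Every shHNRNPC library lay above every shcontrol library, and the gap was far wider than the spread within either group (6.70 ± 0.165 against 22.4 ± 1.07 CPM). The log2 fold change was 1.74 (SE 0.096, edgeR quasi-likelihood adjusted p = 1.81e-20), with a 95% interval for the fold of 2.92 to 3.81. In the family GBP4 is known as a member without a lipid anchor that joins the protein coat that GBP1 forms on bacteria.

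GBP5, which promotes assembly of the NLRP3 inflammasome and, with GBP2, inhibits the protease furin, had the largest fold and the fewest counts. It had 10, 23 and 17 counts in shcontrol and 51, 70 and 71 counts in shHNRNPC. The corresponding levels were 0.588, 1.46 and 0.915 CPM against 3.10, 3.99 and 4.02 CPM. The groups did not overlap, and the lowest shHNRNPC library was about 2-fold above the highest shcontrol library. The log2 fold change was 1.92 (SE 0.255, edgeR adjusted p = 9.71e-09), and at this depth the 95% interval for the fold was wide, 2.66 to 5.41. GENCODE 29 annotates an antisense transcript, AC099063.1, over 9173 bases of GBP5, and a second one, AC099063.4, over 219 bases of GBP4. The use of strand in counting is not given in the sources used here, so reads from these transcripts cannot be told apart from those of GBP5 and GBP4.

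GBP1 is the founding interferon-induced member and binds bacterial lipopolysaccharide directly. It had 2518, 2520 and 2828 counts in shcontrol and 2647, 2918 and 3018 counts in shHNRNPC, or 148, 159 and 152 CPM against 161, 166 and 171 CPM. The groups did not overlap, but the step between the highest shcontrol library and the lowest shHNRNPC library was smaller than the spread within each group. The rise from 153 ± 5.79 to 166 ± 4.85 CPM was a log2 fold change of 0.12 (SE 0.033, edgeR adjusted p = 0.00173). The 95% interval for the fold, 1.04 to 1.14, leaves out a change as large as that of GBP4.

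GBP2, the second most abundant member, had 813, 788 and 854 counts in shcontrol and 724, 788 and 755 counts in shHNRNPC. Scaled, this was 47.8, 49.9 and 45.95 CPM against 44.1, 44.96 and 42.7 CPM, with no overlap and a narrow gap. The log2 fold change was -0.12 (SE 0.053, edgeR adjusted p = 0.0425). The call was also lost with RLE or upper quartile scaling, without a filter and with DESeq2. It was lost without library NC_3, NC_3_2, SI_3 or SI_3_3 (adjusted p = 0.0586, 0.175, 0.0699 and 0.139), and over all alternatives its adjusted p ran from 0.00107 to 1.

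GBP3, which shares its promoter run with GBP1, had 95, 105 and 128 counts in shcontrol and 128, 157 and 103 counts in shHNRNPC. The levels were 5.59, 6.65 and 6.89 CPM against 7.79, 8.96 and 5.83 CPM. The groups overlapped, with library SI_3_3 among the shcontrol values. The log2 fold change was 0.24 (SE 0.139, edgeR adjusted p = 0.139), and the 95% interval for the fold, 0.970 to 1.43, includes no change. Without SI_3_3 the log2 fold change was 0.39 (adjusted p = 0.0160). It was 0.089 (adjusted p = 0.647) without SI_3_2 and 0.15 (adjusted p = 0.400) without NC_3, and over all alternatives the adjusted p ran from 0.00973 to 1.

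**Figure D1:**
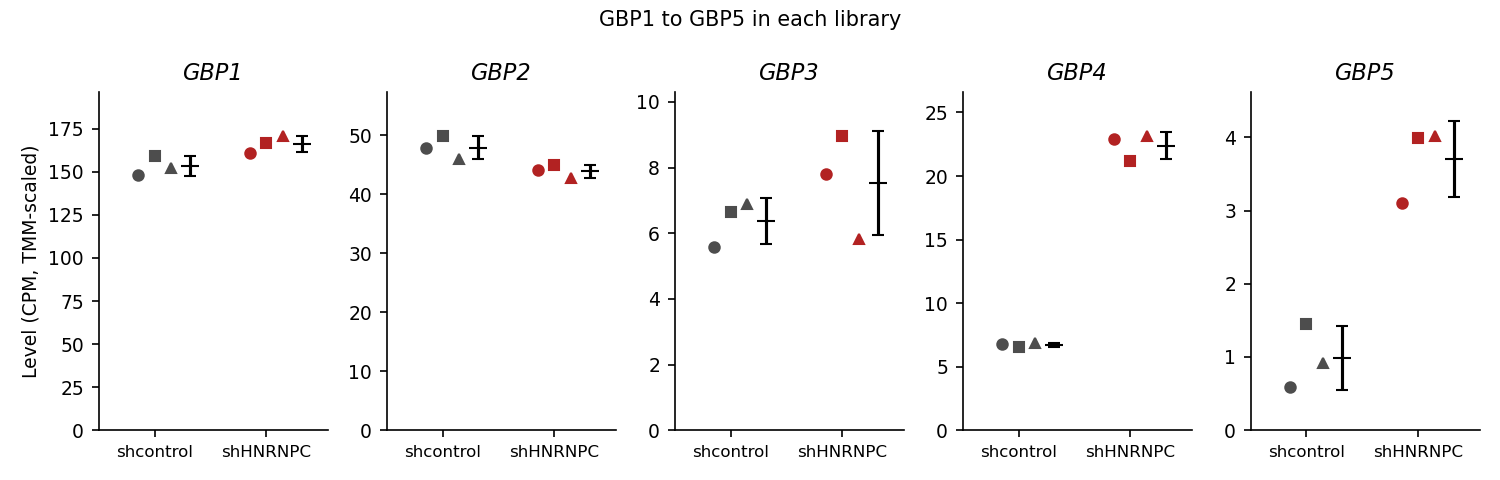
Level of each of the 5 genes in each library, in CPM on linear axes that start at 0, with points for the 3 shcontrol (grey) and 3 shHNRNPC (red) libraries different symbols for the libraries of a group, and a bar for mean ± SD. GBP4 and GBP5 separate widely between groups, from 6.70 to 22.4 and from 0.986 to 3.70 CPM, while GBP3 overlaps.

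All 5 members were tested, and by the edgeR fit 3 were called higher and 1 lower. Across all tested genes, 29.8% were called higher and 31.3% lower (61.1% in either direction), so the number of members called says little about the family. The size of the change separates the members better. Calls of at least 2-fold higher made up 1.87% of tested genes, and GBP4 and GBP5 were among them. Only 0.473% of tested genes had a larger fold than GBP4 and 0.304% a larger one than GBP5. The family median log2 fold change was 0.24, the value of GBP3, against -0.0041 over all tested genes. In 4 members the groups did not overlap, which 30.9% of tested genes showed in the higher and 33.0% in the lower direction (64.0% in either). The authors' deposited table gives log2 fold changes of 0.12, -0.12, 0.24, 1.74 and 1.93 for GBP1 to GBP5, with adjusted p-values of 0.00772, 0.141, 0.305, 8.33e-41 and 7.62e-08, so GBP2 is not called there.

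The other 2 protein-coding genes of the cluster were at or near 0. GBP6 had 1 count in the 3 shcontrol libraries together and 4 in the 3 shHNRNPC libraries. GBP7 had 0 and 2 counts. Neither passed the filter, and no fold is given for them.

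Levels were compared between the genes per length, as CPM per kilobase of the longest coding transcript in GENCODE 29. In shcontrol the order was GBP1 (50.5 ± 1.91 CPM per kilobase), GBP2 (21.6 ± 0.883), GBP3 (2.08 ± 0.226), GBP4 (1.09 ± 0.027) and GBP5 (0.210 ± 0.093), and no neighbours in this order overlapped between libraries. In shHNRNPC GBP1 and GBP2 still led, with 54.7 ± 1.60 and 19.8 ± 0.509 CPM per kilobase. GBP4 ranked above GBP3 in every shHNRNPC library, at 3.66 ± 0.175 against 2.45 ± 0.516 CPM per kilobase, and GBP5 remained lowest at 0.788 ± 0.111. Relative to GBP1, the level per length of GBP4 went from 2.17% to 6.68% and that of GBP5 from 0.416% to 1.44%. The place of GBP3 and the level of GBP5 depend on the transcript assumed. With the shortest coding transcript of 411 bases, GBP3 had 15.5 and 18.3 CPM per kilobase stayed above GBP4 in both groups, and also exceeded GBP2 in library SI_3_2. With the shortest of 2011 bases, GBP5 had 0.490 and 1.84 CPM per kilobase. GBP1, GBP2 and GBP4 have 1 coding transcript each there.

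The family total, most of which is GBP1, differed by less than GBP4 and GBP5 did. The summed level of the 5 genes was 209, 224 and 213 CPM in shcontrol and 239, 246 and 246 CPM in shHNRNPC, without overlap. The mean rose from 215 ± 7.87 to 244 ± 4.13 CPM, 1.13-fold, with an exact two-sided permutation p of 0.1, the smallest that 3 against 3 libraries can give. GBP1 supplied 71.2% of the sum in shcontrol and 68.2% in shHNRNPC.

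The members' responses were also compared within each library, by the log2 ratio of 2 genes' counts, which needs no scaling between libraries. The log2 ratio of GBP1 to GBP4 stood at 4.45, 4.61 and 4.47 in shcontrol and at 2.81, 2.97 and 2.88 in shHNRNPC, a 3.07-fold shift of GBP4 against GBP1. GBP5 shifted 3.59-fold against GBP1 and 4.24-fold against GBP2. GBP4 and GBP5 did not separate from each other: their log2 ratio was 2.82 ± 0.66 in shcontrol and 2.60 ± 0.25 in shHNRNPC and overlapped (exact permutation p = 0.7). The ratio of GBP1 to GBP2 rose 1.18-fold without overlap. Of the 10 pairs, 7 did not overlap between groups, namely GBP4 or GBP5 against each of the other 3 members, and GBP1 against GBP2. Each of the 7 had an exact two-sided permutation p of 0.1, the smallest possible here, and 0.143 after adjustment over the 10 pairs, so none could pass 0.05. Of single tested genes 64.0% did not overlap between groups, and the share for other pairs of genes was not computed. The 10 pairs reuse the same members and are not independent, so the number of such pairs says little by itself.

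**Figure D2:**
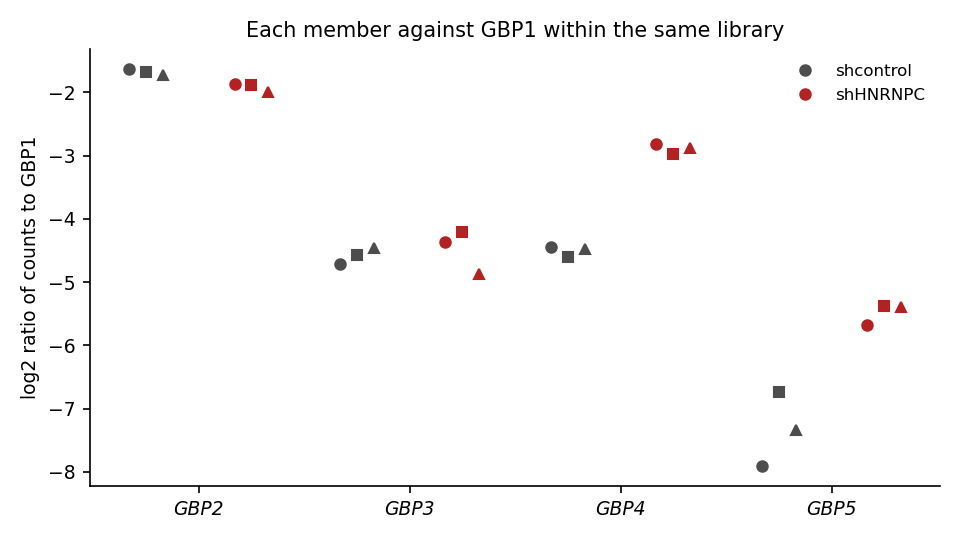
log2 ratio of each member's counts to those of GBP1 in the same library (y axis), for 3 shcontrol (grey) and 3 shHNRNPC (red) libraries, with a symbol for each library. GBP4 and GBP5 stand higher against GBP1 in every shHNRNPC library, GBP2 stands slightly lower, and GBP3 overlaps.

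The family is known for its close sequence similarity, which matters for counting. In the longest coding transcripts of GENCODE 29, 13.3% of the 50-base windows of GBP1 also occur in another gene of the family, mostly the pseudogene GBP1P1, against 4.14% for GBP3, 3.09% for GBP2, 0.313% for GBP4 and 0% for GBP5. With windows of 100 bases only GBP1 shared any (1.87%). The read length is not given in the sources used here. With reads near 50 bases, counts of GBP1, GBP2 and GBP3 are thus more open to loss of reads that match several places than those of GBP4 and GBP5. With reads near 100 bases this holds for GBP1 alone, and no member shared a window of 150 bases. The 5 transcripts had a GC content of 39.5% (GBP5) to 46.9% (GBP2). With counts corrected for GC content and transcript length, 4 members were called higher and 1 lower, beside 26.2% and 30.1% of all genes in that fit. The log2 fold changes of GBP4 and GBP5 were 2.02 and 2.24, and that of GBP3 was 0.40 (edgeR adjusted p = 0.00973).

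In the deposited table the genes lie on chromosome 1 in the order GBP3 (89006666 to 89022882), GBP1 (89052319 to 89065360), GBP2 (89108000 to 89126114), GBP7, GBP4 (89181148 to 89198932), GBP5 (89260582 to 89270863) and GBP6, each on the minus strand except GBP6. In GENCODE 29 GBP7 also overlaps 18706 bases of GBP2 on the same strand. The build is not named there, and 96.1% of its gene positions overlap the same gene in GENCODE 29 (GRCh38). The members that rose more than 2-fold are adjacent among the expressed ones: the start sites of GBP4 and GBP5 lie 71.9 kb apart, and that of GBP2 lies on the other side of the near-silent GBP7. Of the 10 tested neighbours outside the family, 8 were lower and 1 higher, with a median of -0.45. Across all tested genes 31.3% were called lower and 29.8% higher. Not all of the 10 are close, as the start sites of ZNF644 and CDC7 lie 1956 kb and 2436 kb from that of GBP1. To the left, PKN2, a protein kinase, fell 1.46-fold from 40.9 ± 2.07 to 27.9 ± 2.06 CPM, and RBMXL1 had a log2 fold change of -0.14. GTF2B, the general transcription factor TFIIB, was called higher (log2 fold change 0.22, edgeR adjusted p = 0.0228), but its groups overlapped and the call was lost without NC_3, SI_3 or SI_3_2, with library size alone and with DESeq2. KYAT3 did not pass. To the right, the anion channel genes LRRC8B, LRRC8C and LRRC8D had log2 fold changes of -0.51, -0.69 and -0.38, and those of ZNF326 and ZNF644 were -0.38 and -0.52. CDC7, a kinase that triggers replication origins, fell 1.79-fold. No tested neighbour reached a 2-fold rise. After the correction for GC content and length, 3 of the 10 neighbours were lower (PKN2, LRRC8D and CDC7) and the median was -0.12. In that fit 30.1% of all genes were called lower.

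**Figure D3:**
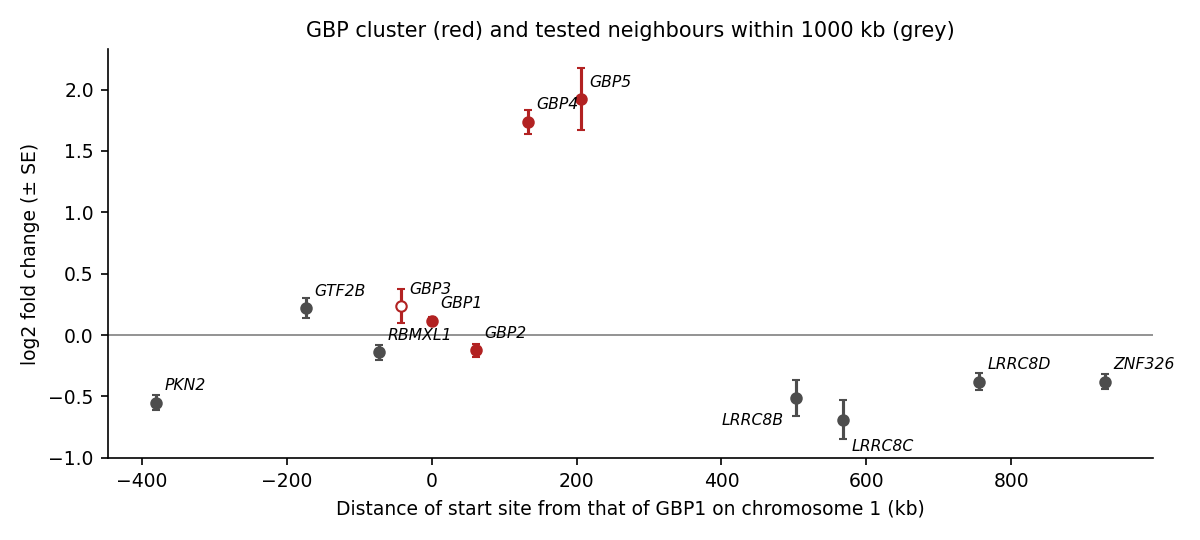
log2 fold change ± SE (y axis) against the distance of each start site from that of GBP1 in kb (x axis), for GBP genes (red) and tested neighbours within 1000 kb that have a position in the table (grey), with open points for genes that did not pass. GBP4 and GBP5 stand at 1.74 and 1.92, and every other point lies between -0.69 and 0.24.

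Of the factors known to drive GBP transcription, IRF1 and STAT2 rose, with smaller fold changes than GBP4 and GBP5, and IRF9 was not analysed here. IRF1, the interferon gamma-induced factor, rose 1.83-fold, from 46.8, 44.6 and 48.9 CPM in shcontrol to 89.1, 85.6 and 82.6 CPM in shHNRNPC. STAT2 rose 1.42-fold, from 78.6 ± 2.22 to 112 ± 0.558 CPM. Neither overlapped between groups. Among 9 tested IRF and partner factors, 5 rose (IRF1, BATF2, IRF3, IRF2 and NLRC5), 1 fell (NFKB1) and IRF5, CIITA and RELA did not pass, with a median of 0.23. Across all tested genes 29.8% were called higher and 31.3% lower, 61.1% in either direction. BATF2, a partner of IRF1, rose 1.93-fold from 7.21 ± 0.890 to 13.9 ± 1.23 CPM, IRF3 rose 1.38-fold, and NLRC5, the activator of class I genes, rose 1.17-fold. IRF8 had at most 1 count and IRF7 at most 4 counts in any library, and neither was tested.

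Of the 15 interferon receptor and signalling genes, 7 rose and 4 fell, with a median of 0.0060. These counts are to be read beside the 29.8% and 31.3% of all tested genes called higher and lower. The inhibitors SOCS1 and USP18 rose 2.09-fold and 2.56-fold, SOCS1 from 101, 104 and 102 counts to 197, 219 and 230 counts. The 4 that fell, named here after their values were seen, were the receptor chains IFNGR1 (1.20-fold) and IFNAR1 (1.35-fold), the phosphatase PTPN2 (1.39-fold) and PIAS1 (1.32-fold). Of the other receptor chains listed, IFNGR2 rose 1.24-fold and IFNAR2 did not pass. Of the 8 interferon genes listed, IFNL1 alone was tested, and 4, among them IFNG, the ligand most closely tied to GBP induction, were not analysed here. IFNL1 had 1, 11 and 10 counts in shcontrol and 27, 31 and 17 in shHNRNPC (3.35-fold, edgeR adjusted p = 2.96e-04). IFNB1, below the filter, had 2, 2 and 3 counts in shcontrol and 9, 10 and 9 in shHNRNPC.

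**Figure D4:**
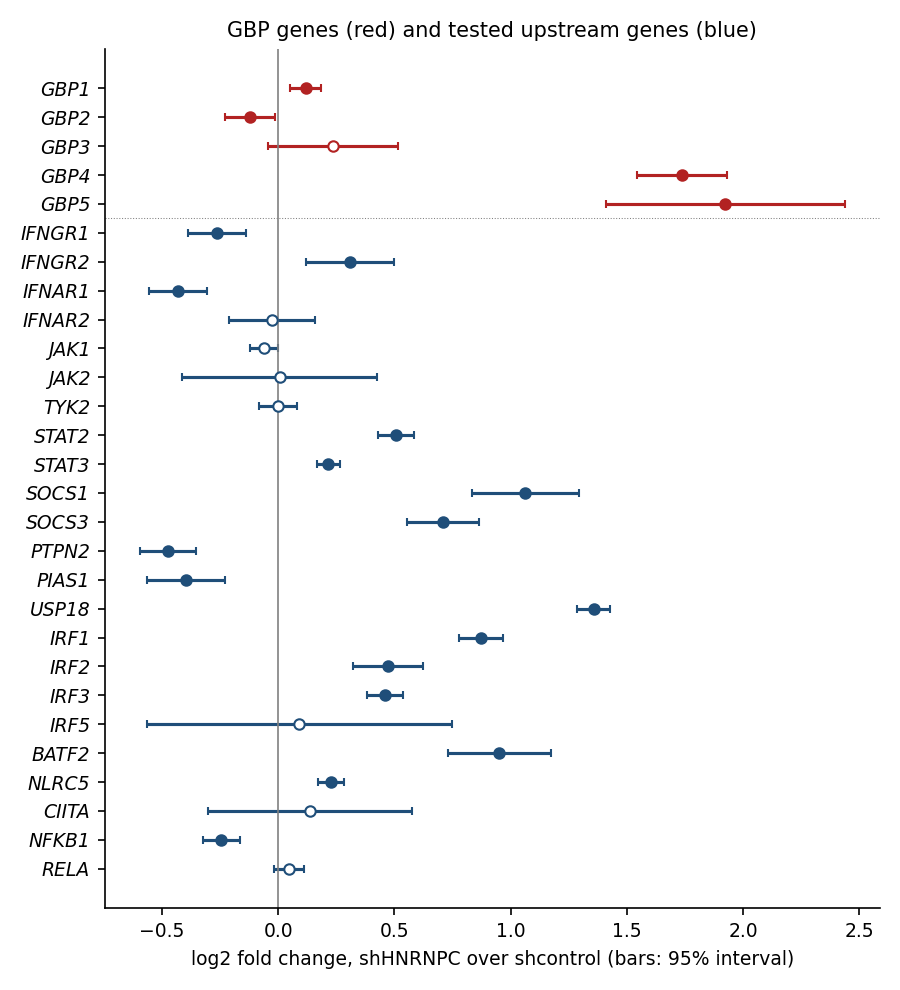
log2 fold change with its 95% interval (x axis) for the 5 GBP genes (red) and the tested genes of the upstream lists (blue, 1 gene left out), with open points for genes that did not pass. GBP4 and GBP5 lie to the right of STAT2 and IRF1, and GBP1, GBP2 and GBP3 lie to the left of IRF1.

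Other interferon targets were mostly higher, where 29.8% of all tested genes were called higher. Of 12 tested targets that lean towards interferon gamma, 11 rose and 0 fell, with a median of 0.88, CD74 being the exception. APOL1, a lipoprotein-associated channel-forming protein, rose 2.54-fold (141 ± 1.54 to 357 ± 5.87 CPM), APOL2 from 105 ± 1.39 to 168 ± 5.71 CPM, ICAM1 1.48-fold and the aminopeptidase LAP3 1.36-fold. Of 26 tested type I targets, 25 rose and 0 fell, with a median of 0.97, and SAMD9 did not pass. OASL rose 3.94-fold, OAS2 2.95-fold, ISG15 2.43-fold and MX1 1.93-fold. By edgeR against a 1.5-fold change, 6 of the 12 and 19 of the 26 targets were called higher. So were 2 of the 5 GBP genes and 1.83% of all tested genes (5.14% were called in either direction). These lists were chosen with results of the same libraries known, so their direction is not independent evidence.

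**Figure D5:**
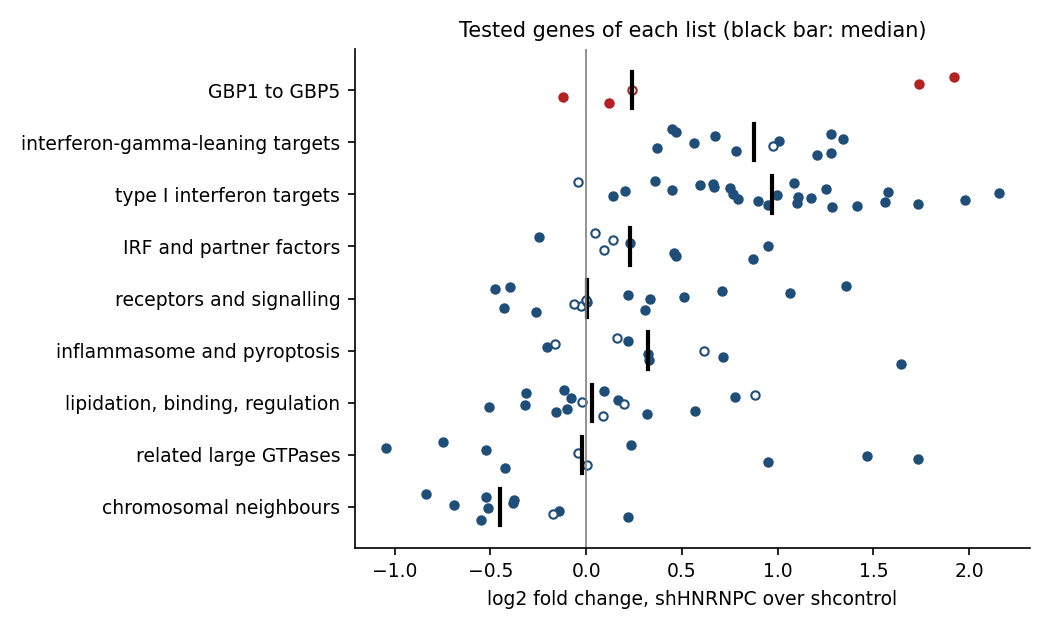
log2 fold change (x axis) of every tested gene in 9 lists, filled where it passed the test, with a black bar at the median. The GBP genes (red) split between values near 0 and the 2 at 1.74 and 1.92, while the interferon target lists have medians of 0.88 and 0.97.

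Partners of GBP function in cell death were only partly present. Of 9 tested inflammasome and pyroptosis genes, 5 rose (CASP8, NLRP1, CASP4, NINJ1 and CASP1) and 1 was called lower, with a median of 0.32. Across all tested genes 29.8% were called higher and 31.3% lower. In either direction 61.1% were called, and the list's count in either direction is near that share. CASP4, the lipopolysaccharide sensor that GBP1 recruits, rose 1.26-fold, from 34.0, 35.9 and 31.6 CPM to 42.6, 42.5 and 42.3 CPM. CASP1, the effector of canonical inflammasomes, rose 3.13-fold from a low 0.747 ± 0.263 to 2.38 ± 0.551 CPM. CASP8 rose 1.64-fold, and the log2 fold change of NLRP1 was 0.32. GSDME was called lower, but its groups overlapped and the call was lost without NC_3_2, SI_3 or SI_3_3 and with DESeq2. NLRP3, AIM2 and GSDMD each had at most 3 counts in any library.

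Of 16 tested genes of GBP lipidation, binding and regulation, 5 rose and 7 fell, with a median of 0.03, counts to be read beside the 29.8% and 31.3% of all tested genes called higher and lower. RNF213, a giant ubiquitin ligase that acts on cytosolic bacteria, rose 1.71-fold (212 ± 4.62 to 363 ± 3.99 CPM). RCE1, the protease that trims CaaX proteins, rose 1.48-fold, and ZMPSTE24, another CaaX protease, fell 1.42-fold. YWHAZ, a 14-3-3 protein, rose 1.12-fold. Among 10 tested related large GTPases, 4 rose and 4 fell, with a median of -0.020. The interferon-induced MX2 rose 3.33-fold (21.5 ± 1.73 to 71.9 ± 2.25 CPM), as MX1 did by less, whereas the mitochondrial fusion GTPases MFN1 and OPA1 fell 2.07-fold and 1.68-fold. DNM1 and MFN2 also rose, and DNM1L and ATL2 also fell.

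The genes whose levels followed each member most closely over the 6 libraries were found by the Euclidean distance between centred log2 CPM profiles, searched over 9695 genes with a mean of at least 5 CPM. For GBP4 these were MX2 (distance 0.147), IFITM1 (0.165) and AMH (0.241), with folds of 3.33, 3.31 and 3.34. For GBP5 they were ZNF684 (0.424), GDF15 (0.710) and DHX58 (0.715), at larger distances. For GBP1 they were URGCP, MGMT and ADCY9, and for GBP2 they were RAB29, DPM1 and ZBTB17, with fold changes of 0.910 to 1.09. For GBP3 they were BCDIN3D, RALGPS1 and SLC35E2A. With 6 libraries in 2 groups, the group difference dominates this measure, and it is given as a description.

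Of 10 leukocyte markers, 4 passed the filter, and CD163 and CD3E had at most 1 count in any library. Among those tested, CD68 was called higher and NCAM1 lower, where 29.8% and 31.3% of all tested genes were. The summed level of the list was 47.6 to 53.8 CPM in shcontrol and 68.3 to 73.8 CPM in shHNRNPC, most of it from CD68, a lysosomal protein that epithelial cells also express (43.2 ± 3.64 to 64.9 ± 2.12 CPM). Of 7 endothelial markers, 2 passed, PECAM1 had at most 2 counts in any library, and the sum was 54.0 to 56.5 and 66.9 to 70.3 CPM, nearly all from EGFL7. Of 7 fibroblast and stromal markers, 3 passed, COL3A1 had at most 9 counts in any library, and the sum was 435 to 442 and 355 to 360 CPM, most of it from ACTA2, smooth muscle actin (417 ± 4.41 to 337 ± 2.58 CPM). The part of such cells in the GBP4 and GBP5 results was not tested. In bulk RNA, fewer cells that express a gene and less RNA per cell cannot be told apart.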

How the data were processed

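RNA from 3 shcontrol and 3 shHNRNPC samples was sequenced after NEBNext Ultra library preparation, per the labels' protocols. STAR, HTSeq 0.6.0 and DESeq2 are listed in the submitters' processing notes. The counts deposited by the authors are raw reads per gene. Which build, annotation and strand setting they used is not given in the sources used here. Deposited by the authors, too, were log2 fold changes and p-values of their own. Because columns match groups and not single samples, only the counts were used, and 24 other per-library columns were not. Columns were assigned to groups by the names NC and SI, and their suffixes tie none to a replicate number.

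Counts were filtered (filterByExpr), scaled by TMM and tested with edgeR 4.0.16 in R 4.3.3 (glmQLFit, glmQLFTest, Benjamini-Hochberg adjustment over all genes, threshold 0.05). The script was tested on simulated data. Pairs of libraries within a group differed by a chi-square of 1.56 to 2.50 per gene, above the 1 of counting noise. None was therefore counted as a repeated sequencing of another library. Whether the libraries came from separate cultures cannot be told from these values. Ratios between members used a prior count of 0.5 and exact permutation tests. Transcript lengths for the levels per kilobase, GC content and overlaps came from GENCODE 29, and promoters from RefSeq (GRCh38.p14).

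The members and gene lists were chosen with earlier results of these data known. Genes were named by rule: every GBP gene, HNRNPC, all tested neighbours, the 4 smallest adjusted p-values of each list (or the 2 most abundant genes where none passed), and the 3 nearest genes to each member. A gene that the rule names, and a motif search, are not reported here, though list counts include that gene. Others, including those that complete a count, were named after their values were seen. Alternatives were other scalings, other filters on low counts, DESeq2 1.42.0, a spline correction for GC content and length, a test against 1.5-fold and leaving out each library. A shorter transcript length for the levels per kilobase and a block on the column suffix were added after seeing the data.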

Additional observations from a re-analysis of the deposited data

How the results depend on the processing

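When a change had to exceed 1.5-fold, 608 genes passed in place of 7228, and 2 of the 5 GBP genes, GBP4 and GBP5, in place of 4. GBP4 and GBP5 were called in all 14 alternatives, with log2 fold changes of 1.70 to 2.02 and 1.66 to 2.28. GBP1 was called in 13 of 14 (0.078 to 0.23), GBP2 in 5 (-0.20 to -0.094) and GBP3 in 2 (0.089 to 0.40), and none of the 5 changed sign. With a library left out, 3 to 4 members were called. Over all alternatives run for it, the log2 difference in summed level between groups ranged from 0.14 to 0.21. Over those run for the ratios, 7 to 9 pairs of members did not overlap. The 10 to 23 shcontrol counts of GBP5 limit its fold. Genes called ranged from 6733 to 6984 with a library left out. Library size alone moved the share of calls that were higher from 48.7% to 41.8%. Of the 392 list counts recomputed, 347 stayed within 1.5 times their main value. The column names do not carry the replicate numbers of the labels, but each group has the same 3 suffixes. Deviations of libraries with the same suffix correlated at -0.041, 0.0084 and -0.043, so no deviation shared by suffix was seen. Not every library correlated best with its own suffix. These values cannot show whether libraries were prepared in pairs. With a replicate block on the suffix, added after seeing the data, 7159 genes and 4 members were called, and no call of the 5 members changed.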
